A study of Sus scrofa with 37 samples.

Results

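The genes followed here encode 8 transcription factors that act in acinar cells and in organs that arise from the foregut: PTF1A, RBPJL, BHLHA15, GATA4, GATA6, FOXA1, FOXA2 and HNF4A. They were chosen by name, and each symbol matched exactly 1 of the 25880 Ensembl pig identifiers in the count tables, so all 8 were found and none was dropped. Their expression was followed by RNA sequencing of pig pancreas and of cultured pig islets, with each sample labelled High or Low for islet density. The pancreas samples were pieces of 50 mg taken from the duodenal lobe when the organ was retrieved, and gave 8 High and 9 Low libraries. The islet samples had been liberated from the organ, purified and kept free-floating in culture for 7 days, and gave 8 High, 9 Low and 1 library whose density label reads N/A. The label belongs to the sample: of 15 animals with a label in both tissues 11 had the same one, 2 had Low pancreas with High islets and 2 the reverse. No genotype, agent or transgene is named for any group, and breed, age and sex are not stated in the labels used here. A piece of the organ holds acinar, duct, endocrine, vascular and stromal cells together, and an islet preparation has passed through isolation and culture, so tissue and culture cannot be told apart in the comparison of islets with pancreas.

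PTF1A is a basic helix-loop-helix protein that binds DNA as part of the PTF1 complex, together with an E protein and either RBPJ or its acinar relative RBPJL. In mouse pancreas, PTF1 with RBPJL drives the digestive enzyme genes, and BHLHA15 (also called MIST1) controls the secretory machinery and granule traffic of acinar cells. GATA4 and GATA6 are zinc finger factors needed for pancreas formation in the mouse, FOXA1 and FOXA2 are forkhead factors that open chromatin in foregut endoderm, and HNF4A is a nuclear receptor active in liver, gut and pancreas, including beta cells.

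Some libraries stood apart, which bears on every value that follows. Among the Low pancreas libraries, 7 held 265000 to 536014 gene counts and are called shallow below, while the other 10 pancreas libraries held 1855075 to 3922006 and the islet libraries 3237653 to 6702589. The 16 acinar secretory genes with a row summed to 1.29% to 3.35% of the counts in the shallow libraries, 10.9% to 29.1% in the other 10 pancreas libraries, and at most 0.0562% in islets. The 10 most abundant genes took 53.3% to 71.7% of the counts in the shallow libraries and 29.3% to 45.1% in the other pancreas libraries. In the islet library labelled N/A they took 87.8%, against 21.8% to 52.3% in the other 17 islet libraries. The label Low, shallow depth and a low acinar share thus fell on nearly the same libraries. Levels are given as CPM, the count divided by the summed counts of its library and multiplied by 1000000. A floor of 3 counts came to 5.6 to 11.3 CPM at shallow depth and to 0.448 to 1.62 CPM elsewhere. In bulk samples such as these, fewer cells of a type and less RNA per cell cannot be told apart.

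The 8 genes fell into 3 patterns across the tissues. PTF1A and RBPJL were close to 0 in islets, with 6 and 13 counts in all 18 islet libraries together. BHLHA15, GATA4 and GATA6 were lower in islets than in pancreas but were still counted in all 18 islet libraries. FOXA2 was higher in islets, HNF4A did not pass the test in either direction, and FOXA1 was low in both tissues. Of the 6 members that passed the low-count filter, RBPJL passed it through pancreas alone and so had to differ. Of the other 5, BHLHA15, GATA4 and GATA6 were lower and FOXA2 higher in islets at an adjusted p under 0.05 in edgeR's quasi-likelihood test. For BHLHA15 and GATA4 too few islet libraries reached the filter's level to pass it in this fit. They entered through pancreas, so their calls are a description, although both passed the filter when islets were fitted alone. That threshold was passed by 62.6% of all 12339 genes tested, with 31.1% higher and 31.5% lower, so a call as such was common in this comparison. Fold changes were relative to a median log2 change over all genes of -0.01 with trimmed mean (TMM) scaling. With library totals and no further scaling that median was 0.47, and 71.0% of the called genes were higher in islets in place of 49.6%.

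**Figure D1:**
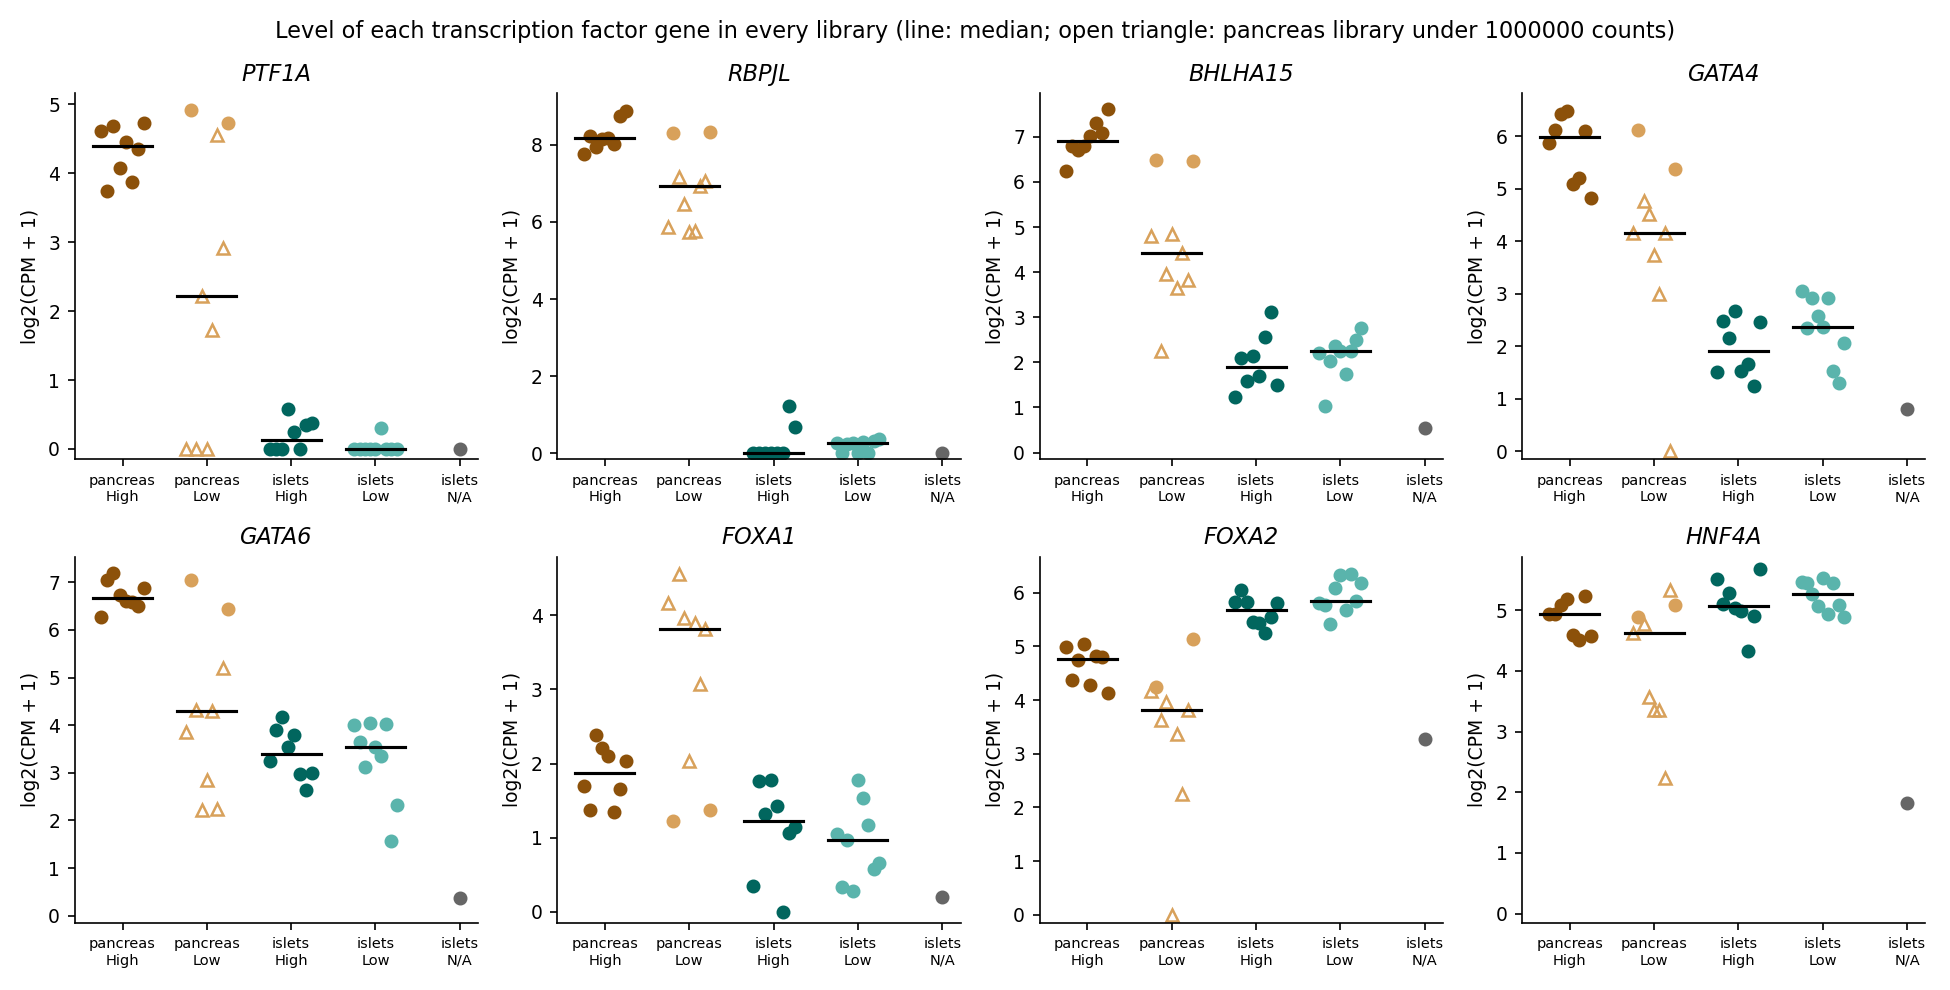
Level of each of the 8 genes as log2(CPM + 1) in all 35 libraries, by tissue and density label, with the group median as a line and open triangles for the 7 shallow pancreas libraries. RBPJL does not overlap between pancreas and islets, FOXA2 is the member whose islet medians lie furthest above its pancreas medians, and the islet library labelled N/A is the lowest islet library for BHLHA15, GATA4, GATA6, FOXA2 and HNF4A.

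PTF1A (ENSSSCG00000030662), a subunit of the PTF1 complex, was counted at 12.4, 20.2 and 25.5 CPM in the lowest, median and highest High pancreas library. In Low pancreas it was at 0, 3.64 and 29.1 CPM. Islets gave 0, 0.0941 and 0.488 CPM in the High group and 0, 0 and 0.236 CPM in the Low group. It was at 0 in 13 of 18 islet libraries and at or under the 3-count floor in all 18. None of the 10 pancreas libraries of normal depth overlapped the islets, whereas 3 shallow libraries were at 0 as well. PTF1A did not pass the filter for the test over all libraries. Without the shallow libraries it passed only through pancreas, so no test of it is given. Over summed counts, its level was 20.7 CPM in the 10 pancreas libraries and 0.0765 CPM in islets, a ratio of 270 (exact 95% interval 123 to 739, counting error only).

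RBPJL (ENSSSCG00000037156), the DNA-binding partner of PTF1A in acinar cells, was counted in every pancreas library and had almost no counts in islets. High pancreas libraries had 215, 285 and 470 CPM (lowest, median, highest) and Low pancreas libraries 52.5, 121 and 320 CPM. In islets the highest High library had 1.36 CPM and the highest Low library 0.287 CPM, with medians of 0 and 0.208 CPM. Every pancreas library, shallow ones included, lay above every islet library. The fitted log2 change of -10.54 is a description only, since the gene entered the fit through pancreas alone. With 17 of 18 islet libraries at or under 3 counts, the summed counts give the size more directly: 305 CPM in the 10 deeper pancreas libraries against 0.166 CPM in islets, a ratio of 1839 (exact 95% interval 1075 to 3455). High islets replicate 7 held 5 of the 13 islet counts, and without it, a choice made after the data were seen, islets had 0.107 CPM and the ratio was 2848 (exact 95% interval 1445 to 6599).

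BHLHA15 (ENSSSCG00000038489), the regulator of the acinar secretory apparatus, was counted in every islet library, unlike PTF1A and RBPJL. It had 74.7, 119 and 194 CPM in High pancreas and 3.77, 20.5 and 88.2 CPM in Low pancreas. In islets it had 1.33, 2.76 and 7.63 CPM in the High group and 1.03, 3.75 and 5.75 CPM in the Low group, from 4 to 28 counts a library. Of the 17 pancreas libraries 16 lay above all 17 islet libraries with a density label, and the exception was Low pancreas replicate 3, the shallowest, with 1 count. The log2 change was -5.13 ± 0.35 (SE; edgeR adjusted p = 3.05e-16), a description because the gene entered this fit through pancreas. In the RefSeq table of assembly Sscrofa11.1 BHLHA15 overlaps TECPR1, and because no strand setting is stated, the reads of such a pair cannot be told apart. TECPR1, looked up for this reason after the values were seen, had a log2 change of 0.44 ± 0.30 (SE; edgeR adjusted p = 0.198).

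GATA4 (ENSSSCG00000022383), which in the adult mouse pancreas marks mainly acinar cells, had 27.5, 62.8 and 88.9 CPM in High pancreas and 0, 16.9 and 68.9 CPM in Low pancreas. Islets had 1.36, 2.82 and 5.37 CPM in the High group and 1.47, 4.19 and 7.29 CPM in the Low group. The 10 deeper pancreas libraries lay above all islets, while of the shallow libraries Low replicate 8 was at 0, below them, and Low replicate 6 at 6.96 CPM, among them. GATA4 was lower in islets by a log2 change of -4.10 ± 0.30 (SE; edgeR adjusted p = 2.65e-15), a description because it entered this fit through pancreas.

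GATA6 (ENSSSCG00000003702), the close relative of GATA4 that is also required for human pancreas formation, had 76.3, 101 and 145 CPM in High pancreas and 3.64, 18.6 and 131.1 CPM in Low pancreas. Islet values were 5.18, 9.62 and 17.1 CPM in the High group and 1.96, 10.6 and 15.4 CPM in the Low group. Again the 10 deeper pancreas libraries stood above every islet library, but the shallow ones ran from 3.64 to 36 CPM and through the islet range. The log2 change was -3.50 ± 0.33 (SE; edgeR adjusted p = 2.76e-12). GATA6 overlaps an uncharacterised protein-coding gene in the RefSeq table, and the reads of that pair cannot be told apart either.

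FOXA1 (ENSSSCG00000037634), a forkhead factor, was near the limit of counting in both tissues. It had 4 to 13 counts in High pancreas (1.53, 2.67 and 4.23 CPM), 1 to 6 counts in Low pancreas (1.34, 13.1 and 22.6 CPM) and 0 to 11 counts in islets. The islet CPM values were 0, 1.35 and 2.44 in the High group and 0.208, 0.964 and 2.42 in the Low group. The high CPM values were all from shallow libraries, where a single count is worth several CPM, and lay above every islet library. The 10 deeper pancreas libraries, at 1.34 to 4.23 CPM, overlapped the islets. FOXA1 was removed by the low-count filter. With no filter its log2 change was -2.21 ± 0.39 (SE; edgeR adjusted p = 6.05e-06). That fit called 15012 of 24780 genes and included the shallow libraries, so this value is a description. Summed counts gave 2.61 CPM in the 10 deeper pancreas libraries and 1.11 CPM in islets, a ratio of 2.35 (exact 95% interval 1.7 to 3.24).

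FOXA2 (ENSSSCG00000007114), the forkhead factor that in the mouse also works in endocrine cells, was the only member tested that was called higher in islets. Pancreas had 16.5, 26.3 and 32 CPM in the High group and 0, 13.1 and 34 CPM in the Low group. Islets had 37.1, 50.2 and 65.6 CPM in the High group and 41.5, 56.5 and 80.4 CPM in the Low group. All 17 islet libraries with a density label lay above all 17 pancreas libraries, and the library labelled N/A, at 8.65 CPM, lay within the pancreas range. How many other genes separated the tissues in this way was not counted. The log2 change was 0.86 ± 0.18 (SE; edgeR adjusted p = 5.98e-05), and 0.79 ± 0.17 (edgeR adjusted p = 8.04e-05) without the library labelled N/A. It was 0.41 (edgeR adjusted p = 0.0352) between the High libraries and 1.48 between the Low libraries, fits in which 61.1% and 61.3% of genes were called. The deeper pancreas libraries alone gave a ratio of summed counts, pancreas over islets, of 0.469 (exact 95% interval 0.432 to 0.508). Endocrine markers moved the same way as FOXA2: all 11 were called higher in islets, and their sum was 52595 to 90666 CPM in islets with a density label and 263 to 14217 CPM in pancreas. Their part in the FOXA2 difference was not tested.

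HNF4A (ENSSSCG00000007371), a nuclear receptor whose loss causes an inherited form of diabetes in humans, had 21.7, 29.5 and 36.7 CPM in High pancreas and 3.73, 23.6 and 39.3 CPM in Low pancreas. Islets had 19.1, 32.6 and 50.4 CPM in the High group and 28.7, 37.4 and 45 CPM in the Low group. The tissues overlapped throughout: only 4 shallow pancreas libraries were below all islets with a density label. The log2 change was -0.15 ± 0.14 (SE; edgeR adjusted p = 0.381), so the direction was not resolved. It was 0.42 with unscaled library totals (edgeR adjusted p = 0.128), where the median gene moved by 0.47. It was -0.37 (edgeR adjusted p = 0.0418) between the High libraries, 0.27 (edgeR adjusted p = 0.299) between the Low libraries and -0.29 (edgeR adjusted p = 0.027) without the shallow libraries, a fit in which 67.1% of 12607 genes were called. HNF4A overlaps a long noncoding RNA gene in the RefSeq table.

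Both tissues of the same animal were available for 16 animals, which sets the tissue difference against the spread between animals. RBPJL and BHLHA15 had a lower CPM in islets in 16 of 16 animals, and GATA4 and FOXA1 in 15. GATA6 was lower in 13, and the 3 exceptions all had a shallow pancreas library. PTF1A was lower in 13, equal in 2 and higher in 1. FOXA2 and HNF4A had a higher CPM in islets in 15 of 16 animals, the exception for both being the animal whose islet label reads N/A. For HNF4A this direction of CPM was opposite to that of the TMM-scaled estimate. With the animal as a block, BHLHA15, GATA4, GATA6 and FOXA2 were again called by edgeR, as were 55.4% of 12138 genes.

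**Figure D2:**
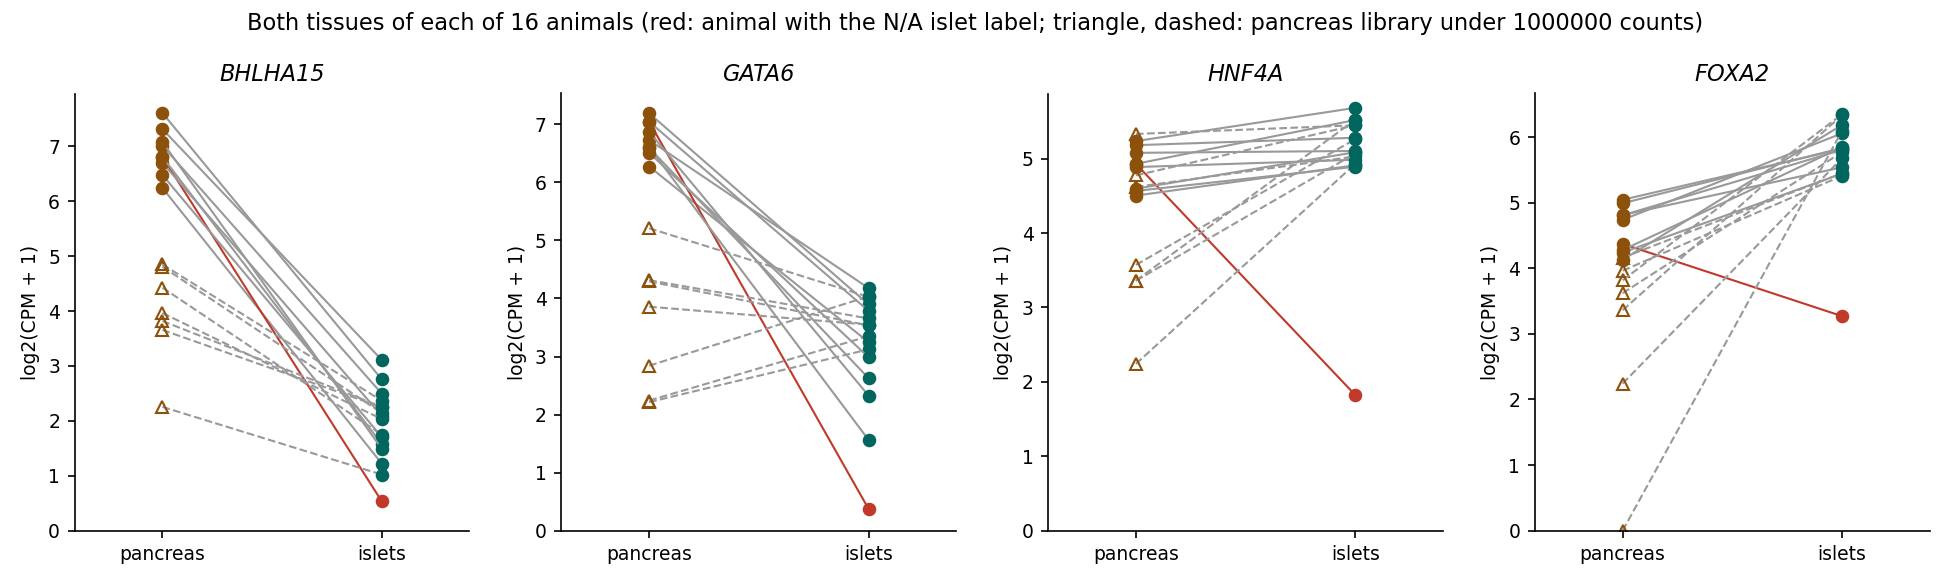
CPM on the log2(CPM + 1) scale in the pancreas and islets of each of 16 animals for BHLHA15, GATA6, HNF4A and FOXA2, with lines joining an animal, triangles and dashed lines for shallow pancreas libraries and red for the animal with the N/A islet label. BHLHA15 falls in all 16 animals and GATA6 in 13, whereas HNF4A and FOXA2 rise in all but the red one.

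Genes that work with these factors did not follow them as a group. Of the 4 PTF1 partners, which are expressed in many cell types, TCF4 was higher in islets (log2 change 0.72 ± 0.15 SE, edgeR adjusted p = 6.21e-05). RBPJ, the general relative of RBPJL, had a log2 change of 0.13, TCF12 of 0.07 and TCF3 of -0.34, and none of these passed the test. RBPJ itself was measured at a mean of 39 ± 6.84 CPM (SD, n = 10) in the deeper pancreas libraries and 50.6 ± 15.9 CPM (SD, n = 18) in islets, where RBPJL was nearly at 0. With unscaled totals 3 of the 4 partners were called higher, RBPJ among them, at a log2 change of 0.74. Their median log2 change was 0.10, beside -0.01 for all genes.

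Among 5 genes known as BHLHA15 targets in mouse acinar or gastric cells, 4 were tested, and 2 fell and 2 rose. GJB1, a gap junction protein of acinar cells, was lower in islets by a log2 change of -6.47 ± 0.34 (SE), from a median of 18 CPM in the deeper pancreas libraries to 0.207 CPM, and had passed the filter through pancreas alone. RAB3D, a small GTPase of secretory granules, was lower by -0.75 ± 0.17 (SE; edgeR adjusted p = 0.00024), a call lost with unscaled totals (-0.20). RAB26, another granule GTPase, rose by 1.10 ± 0.24 (SE; edgeR adjusted p = 0.000121) and the calcium pump gene ATP2C2 by 1.96 ± 0.50 (SE; edgeR adjusted p = 0.00074). ATP2C2 had passed the filter through islets alone, so its rise is a description. The median over the 4 was 0.18, and COPZ2 was not tested.

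NR5A2, a nuclear receptor that cooperates with PTF1 in acinar cells, went the way of BHLHA15, with medians of 88.5 CPM in the deeper pancreas libraries and 2.27 CPM in islets (log2 change -4.96 ± 0.32 SE, edgeR adjusted p = 5.96e-17). Like BHLHA15 it passed the filter of this fit through pancreas alone, so its change is a description. XBP1, a stress response factor of secretory cells, did not pass the test over all libraries (-0.26 ± 0.27 SE, edgeR adjusted p = 0.415). It was lower by -0.83 (edgeR adjusted p = 2.08e-08) without the shallow libraries. The 15 acinar secretory genes tested, led in abundance by CPA1, PNLIP, CPB1 and PRSS2, were lower in islets, but only 3 of them passed the filter in islets alone, so their count is a description. Of the GATA family list, the cofactor ZFPM1 (-2.22 ± 0.26 SE) was called lower by edgeR. ZFPM2 (-3.60 ± 0.36 SE) had passed the filter through pancreas alone, so its change is a description. GATA1, GATA2, GATA3 and GATA5 were not tested, and their medians in islets were 1.18, 0.788, 0.251 and 0 CPM.

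The foregut and hepatocyte nuclear factors were divided: of 10 tested, 1 rose, 5 fell and 4 did not pass, with a median log2 change of -0.42 against -0.01 over all genes. The most abundant by CPM were split. ONECUT1, needed for duct and early endocrine cells in the mouse, fell by 5.55 ± 0.32 on the log2 scale (SE). It had passed the filter through pancreas alone, so its fall, 1 of the 5, is a description. PROX1 (0.17), which has a known role in pancreas development, did not pass. The other genes called, named after their values were seen, were SOX9 (-3.75), HNF4G (-1.07), HES1 (-0.94), FOXA3 (-0.52) and MNX1 (1.17). MNX1 had passed the filter through islets alone, so its rise is a description. The calls of HNF4G, HES1 and FOXA3 were lost with unscaled totals, where 2 rose and 2 fell. FOXA3, the third forkhead paralogue, was also not called without the shallow libraries (-0.17, edgeR adjusted p = 0.425).

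**Figure D3:**
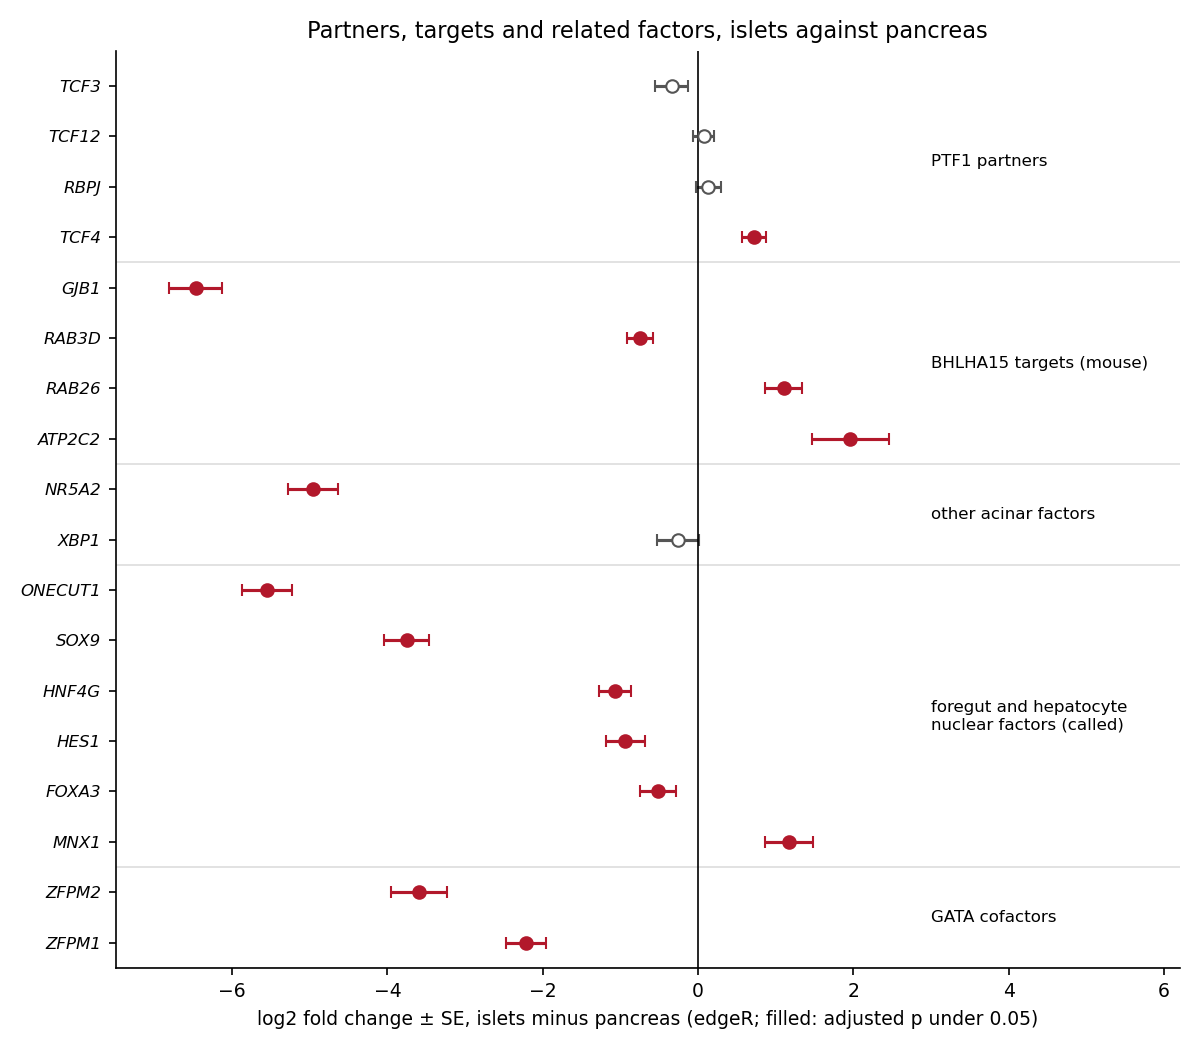
Log2 fold change with SE, islets minus pancreas, of every tested gene of the 4 shorter lists and of the called genes among the foregut and hepatocyte nuclear factors, with filled points for an edgeR adjusted p under 0.05. GJB1, ONECUT1, NR5A2, SOX9 and ZFPM2 lie below -3, and the 4 PTF1 partners lie between -0.34 and 0.72. GJB1, ONECUT1, ZFPM2 and NR5A2 had passed the low-count filter of this fit through pancreas alone, and ATP2C2 and MNX1 through islets alone.

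Markers of other cell types also differed between the tissues. Of duct markers 5 of 6 were called lower in islets and 1 higher, of fibroblast markers 4 of 7 lower and 3 higher, and of smooth muscle markers 2 of 2 lower. Of endothelial markers 2 of 4 were lower, of hepatocyte markers 2 of 3 lower and of intestinal epithelium markers 1 of 1 higher. Only 4 duct, 5 fibroblast, 3 endothelial and 2 hepatocyte markers passed the filter in islets alone, so these counts are a description. Over all genes tested, 31.1% were called higher and 31.5% lower. Duct markers summed to 1405 to 2931 CPM in the deeper pancreas libraries, 306 to 586 CPM in the shallow ones and 51.9 to 317 CPM in islets with a density label. The part of these cells in the differences of GATA6, HNF4A and ONECUT1 was not tested.

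The next comparison asked whether the members differed with islet density in the organ. In pancreas pieces labelled High, BHLHA15, GATA6, GATA4, RBPJL and FOXA2 were called higher than in pieces labelled Low, that is 5 of the 7 members tested. PTF1A and HNF4A were not called and FOXA1 was not tested. GATA6, FOXA2 and PTF1A passed the low-count filter through the High group alone, so their values in this comparison are a description. The share called was 40.3% over all 10634 genes tested, 18.8% higher and 21.5% lower. With upper-quartile scaling 34.6% of the called genes were higher in place of 46.6%, and with unscaled totals 22.4%. Without the 7 shallow libraries, which leaves 8 High against 2 Low, edgeR called 0 of the 8 members then tested and 0% of 13217 genes, and 1222 genes had an unadjusted p under 0.05.

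BHLHA15 had the largest of these differences, with a log2 change of 1.88 ± 0.34 (SE; edgeR adjusted p = 0.000256). Of the 8 High libraries 7 lay above all Low libraries, whose 2 deep members had 87 and 88.2 CPM, above the lowest High library at 74.7 CPM. Against those 2 alone the log2 change was 0.99 ± 0.26 (SE; edgeR adjusted p = 0.329). TECPR1, which it overlaps, had a log2 change of -0.95 ± 0.47 (SE; edgeR adjusted p = 0.106), the other direction.

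GATA6 was higher in High pancreas by a log2 change of 1.61 ± 0.41 (SE; edgeR adjusted p = 0.00351), a description because it passed the filter through the High group alone. The 2 deep Low libraries, at 85.4 and 131.1 CPM, were within the High range, and all 7 shallow ones, at 36 CPM or less, were below it. GATA4 was higher by 1.22 ± 0.38 (SE; edgeR adjusted p = 0.014), with the deep Low libraries at 40.3 and 68.9 CPM inside the High range and the shallow ones at 26.4 CPM or less below it. Without the shallow libraries the log2 changes were 0.45 ± 0.30 for GATA6 and 0.56 ± 0.51 for GATA4 (SE).

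RBPJL was higher by 1.13 ± 0.31 (SE; edgeR adjusted p = 0.00615). Its deep Low libraries, at 315 and 320 CPM, lay above 6 of the 8 High libraries, and its shallow libraries, at 52.5 to 143 CPM, lay below all 8. The change was 0.42 ± 0.24 (SE) without the shallow libraries. PTF1A had a log2 change of 0.60 ± 0.42 (SE; edgeR adjusted p = 0.256), and its deep Low libraries had 25.5 and 29.1 CPM. Among the shallow libraries PTF1A ran from 0 to 22.4 CPM, the highest being Low replicate 7 with 12 counts where the other 6 had 0 to 2.

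FOXA2, which passed the filter through the High group alone, was higher by 0.82 ± 0.31 (SE; edgeR adjusted p = 0.0358), a narrow call. It was lost when any 1 of 8 libraries was left out (High replicate 1 or Low replicates 1, 2, 3, 5, 6, 7 or 8), with edgeR adjusted p from 0.0503 to 0.0718. It was also lost with upper-quartile scaling (0.65, edgeR adjusted p = 0.0846) and in limma-voom (0.76, adjusted p = 0.0762). HNF4A, at 0.53 ± 0.26 (SE; edgeR adjusted p = 0.104), became a call with no low-count filter (0.98, edgeR adjusted p = 0.0108). For both genes the High and Low ranges overlapped, and the 2 deep Low libraries had 17.9 and 34 CPM of FOXA2 and 28.6 and 32.9 CPM of HNF4A, close to the High group.

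**Figure D4:**
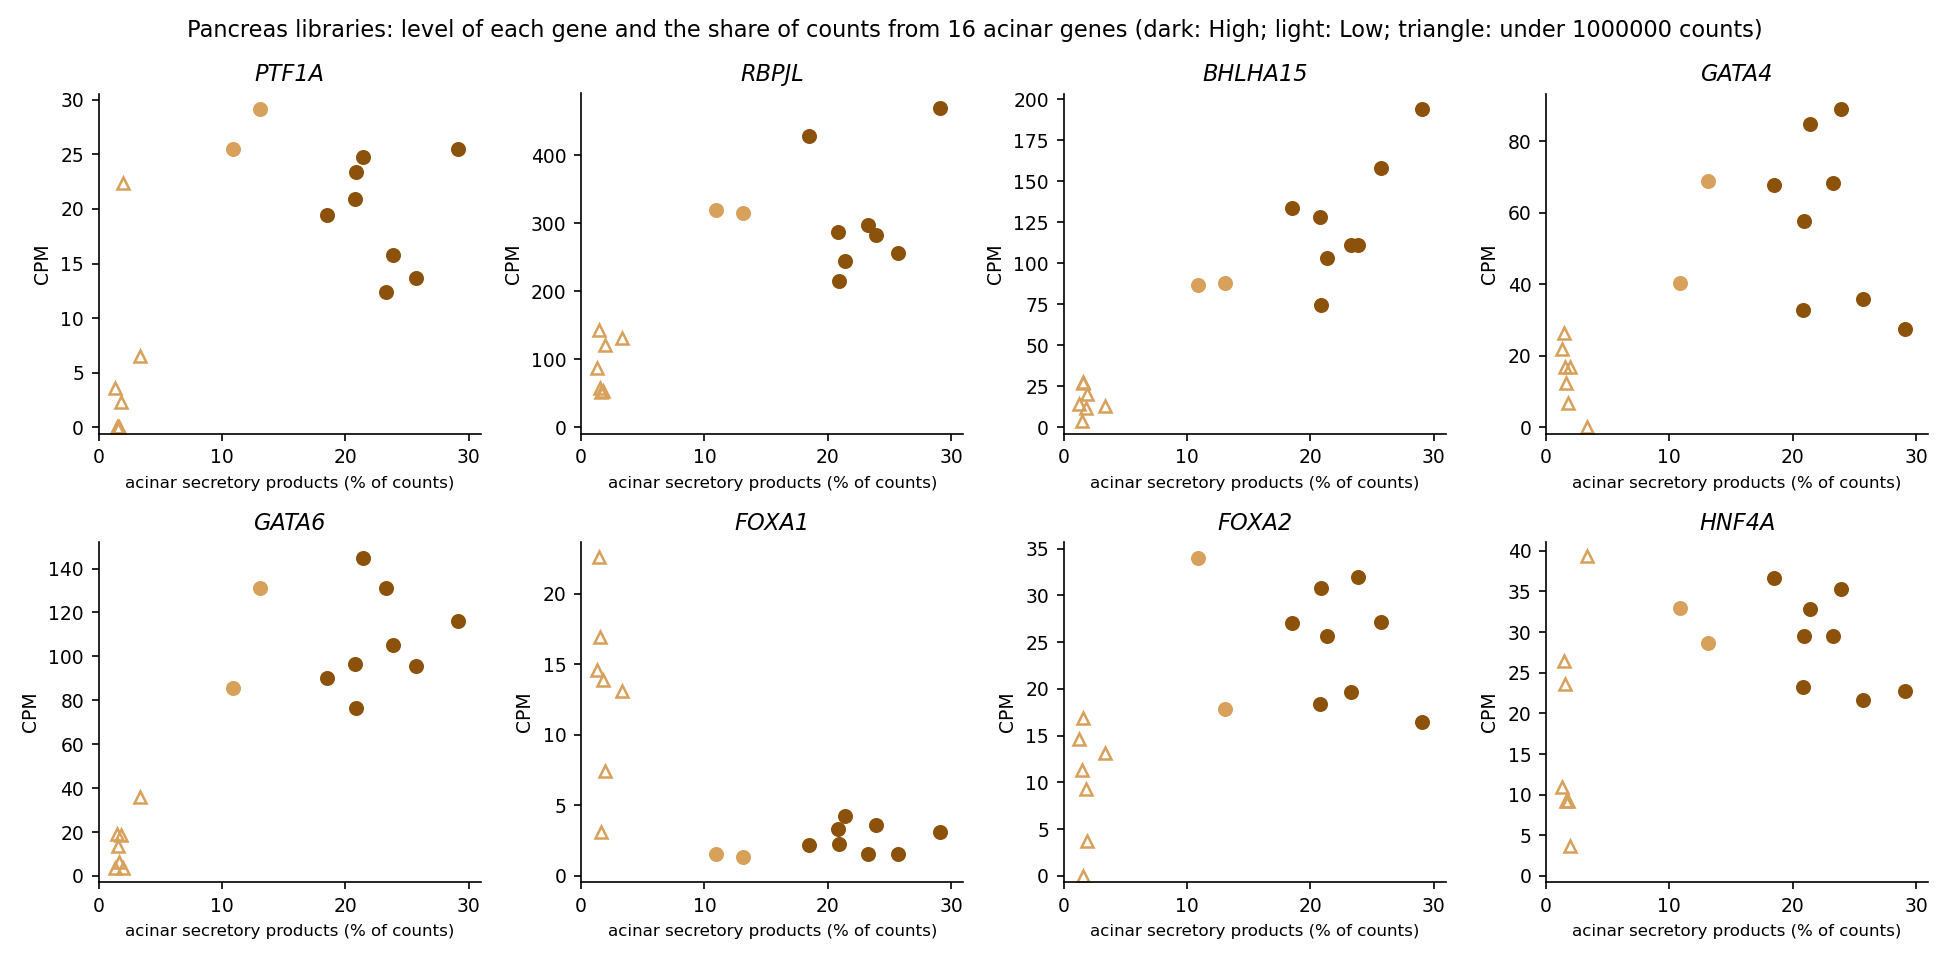
CPM of each gene in the 17 pancreas libraries against the share of counts from 16 acinar secretory genes, in percent, with dark points for High, light points for Low and triangles for the 7 shallow libraries. The shallow libraries lie at 1.29% to 3.35% and are low for RBPJL, BHLHA15, GATA4 and GATA6, while the 2 deep Low libraries lie at 10.9% and 13.1% with values near those of High libraries.

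Acinar genes moved with the same libraries. All 15 acinar secretory genes tested were called higher in High pancreas, with a median log2 change of 2.67 beside 0.07 for all genes, and XBP1 (1.69 ± 0.36 SE) and NR5A2 (1.29 ± 0.34 SE) were called higher too. Their part in the members' differences cannot be told apart from depth. With each library's acinar level as a covariate, edgeR called 0 of the 7 members and 0% of genes, while 488 genes had an unadjusted p under 0.05, and the log2 change was 0.61 for BHLHA15, 0.33 for GATA4, -0.23 for GATA6 and 0.09 for RBPJL. With every pancreas library thinned to 265000 counts, an alternative added after the data were seen, 4 members could be tested, 37% of 2381 genes were called by edgeR, and BHLHA15 (1.34 ± 0.29 SE, adjusted p = 0.000774) and GATA6 (0.97 ± 0.32 SE, adjusted p = 0.0176) were called. RBPJL (0.40) and GATA4 (0.15) were then not called.

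Of the PTF1 partners, RBPJ was higher in High pancreas (0.71 ± 0.26 SE, edgeR adjusted p = 0.0353) and TCF3 lower (-0.95 ± 0.37 SE, edgeR adjusted p = 0.0431), while TCF12 and TCF4 did not pass. The 3 BHLHA15 targets tested (GJB1, RAB26 and RAB3D) had log2 changes of 0.54, 0.76 and 0.38, none of which passed. Of 8 foregut nuclear factors tested 3 were higher and 1 lower, with a median of 0.31: ONECUT1 (0.89) and PROX1 (0.94) by the rule of abundance, and SOX9 (1.33) and FOXA3 (-1.34) named after their values were seen. In the GATA list GATA2 (-2.05) and ZFPM2 (-1.41) were lower and ZFPM1 (0.35) did not pass. None of these calls was present without the shallow libraries, and with unscaled totals those of RBPJ, TCF3, ONECUT1 and PROX1 were lost. GATA2, ZFPM2 and FOXA3 passed the filter only with the Low libraries counted in. Their medians were 3.32, 4.41 and 4.86 CPM in High pancreas and 11.6, 13.9 and 13.1 CPM in the shallow libraries, so their calls are a description.

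Among markers of other cells, 3 of 6 duct and 2 of 4 endothelial markers were higher in High pancreas, and 4 of 11 endocrine, 2 of 7 fibroblast and 2 of 3 smooth muscle markers were lower. The summed endocrine level went the other way, with a median of 1066 CPM in High and 419 CPM in Low pancreas. It was 263 to 606 CPM in the shallow libraries, and 767 and 14217 CPM in the 2 deep Low libraries. The 3 hepatocyte markers and the 1 intestinal marker tested did not pass. Several factors that are scarce in the deeper pancreas libraries had raised CPM in the shallow ones, as FOXA1 did. Their medians were 0.828 and 13.5 CPM for GATA3, 3.89 and 11.6 CPM for GATA2 and 0 and 3.37 CPM for GATA5. The 3-count floor of the shallow libraries was 5.6 to 11.3 CPM, so GATA5 lay under it and GATA2 and GATA3 close to it.

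Islets were compared by their own density label. No member differed: edgeR called 0 of the 5 tested and 0% of 12070 genes, and 257 genes had an unadjusted p under 0.05. DESeq2 and limma-voom also called 0 members. The log2 changes, High minus Low, were 0.05 ± 0.36 for BHLHA15, -0.43 ± 0.32 for GATA4, 0.12 ± 0.31 for GATA6, -0.19 ± 0.13 for FOXA2 and -0.02 ± 0.12 for HNF4A (SE; edgeR adjusted p = 0.999 for each). The ranges of the High and Low islets overlapped for all 8 members, as they did for every gene with a count: 0% of 23879 had ranges apart. PTF1A and RBPJL, with at most 2 and 5 counts in a labelled islet library, and FOXA1, with at most 11, were not tested, and a difference in them was not detectable at this depth.

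**Figure D5:**
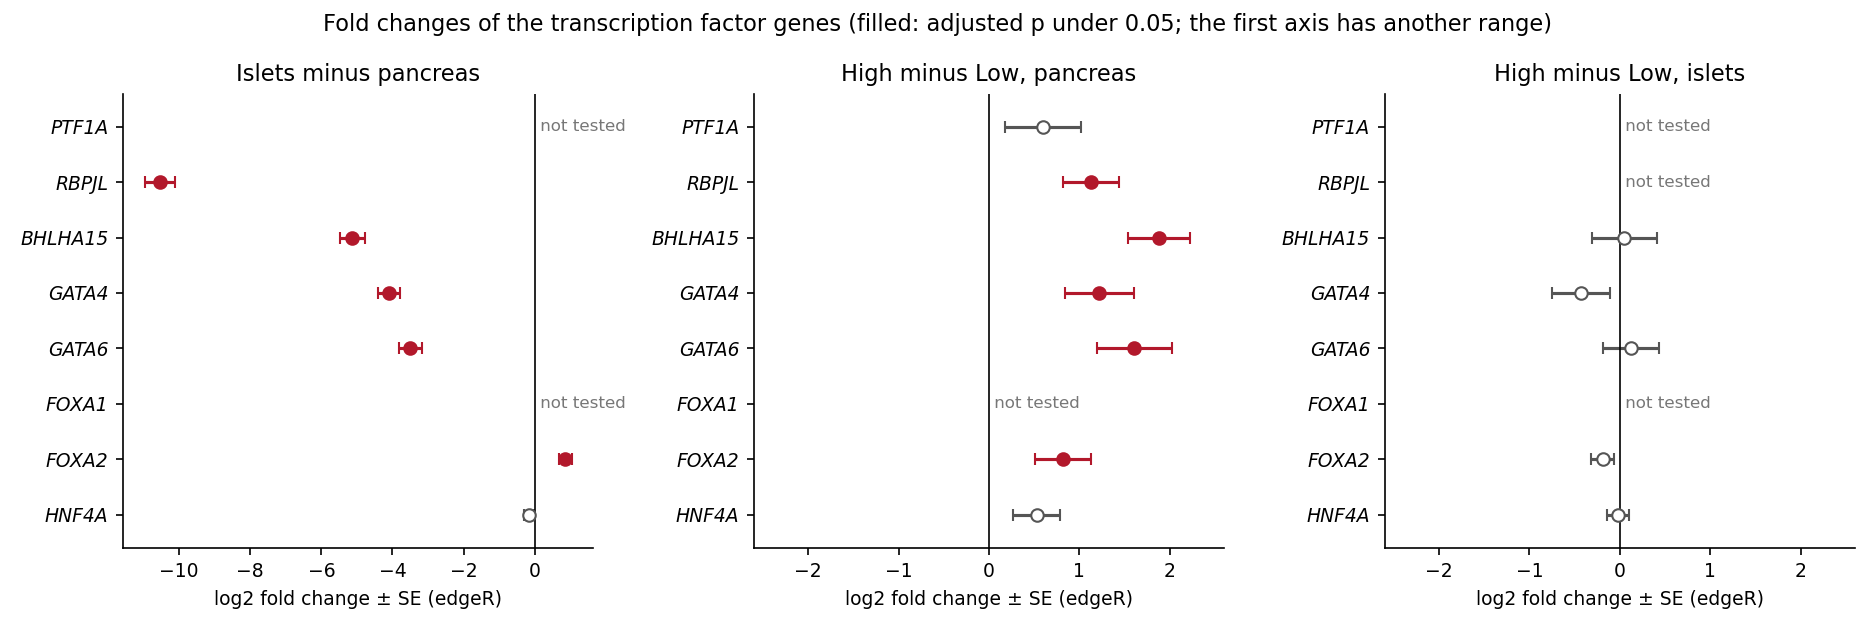
Log2 fold change with SE (edgeR) of each member in 3 comparisons, with filled points for an adjusted p under 0.05 and a wider axis in the first panel. RBPJL, BHLHA15, GATA4 and GATA6 lie below 0 for islets minus pancreas and above 0 for High minus Low in pancreas, and no member is filled for High minus Low in islets.

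Whether density effects differed between the tissues was tested directly, as the effect in pancreas minus that in islets, each by the label of the sample, which differed between the tissues in 4 animals. All 8 members could be tested, and 6 were called: BHLHA15 (1.95 ± 0.50 SE, edgeR adjusted p = 0.00287), GATA4 (1.78 ± 0.52 SE, adjusted p = 0.0073), GATA6 (1.54 ± 0.54 SE, adjusted p = 0.0216), FOXA2 (1.18 ± 0.32 SE, adjusted p = 0.00407), HNF4A (0.77 ± 0.27 SE, adjusted p = 0.0231) and, in the other direction, FOXA1 (-1.91 ± 0.76 SE, adjusted p = 0.0431). PTF1A (-0.80 ± 0.74 SE) and RBPJL (0.82) were not called by edgeR. FOXA1, PTF1A and RBPJL had passed the filter through pancreas alone, so their values are a description. For FOXA1 no islet library was above 2.44 CPM, and its high pancreas values came from shallow libraries. The background was 39.9% of 14337 genes, 17.7% higher and 22.2% lower. Of the called genes 44.3% were higher, but 29.5% with upper-quartile scaling and 18.4% with unscaled totals. With unscaled totals GATA6 (1.30, edgeR adjusted p = 0.0832) and HNF4A (0.50, edgeR adjusted p = 0.269) were not called. HNF4A was also lost with relative log expression scaling (0.63, edgeR adjusted p = 0.0555), upper-quartile scaling (0.52, edgeR adjusted p = 0.11) and thinning (0.38, edgeR adjusted p = 0.452). FOXA1 was lost with no filter (-1.27, edgeR adjusted p = 0.149), a CPM filter (-1.66, edgeR adjusted p = 0.0629) and limma-voom (-0.90, adjusted p = 0.369). Without the shallow libraries edgeR called 0 of 8 members and 0.401% of 15210 genes. FOXA1 then had a log2 difference of 1.04 ± 0.94 (SE; adjusted p = 0.673), opposite in sign.

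The order of the group medians was High pancreas, Low pancreas and then both islet groups for PTF1A, RBPJL, BHLHA15, GATA4 and GATA6. For RBPJL the step from Low pancreas (121 CPM) to Low islets (0.208 CPM) was the only one without overlap between neighbours, and for the other 4 all neighbouring groups overlapped. For FOXA2 and HNF4A the order was Low islets, High islets, High pancreas and Low pancreas. The step from High islets (50.2 CPM) to High pancreas (26.3 CPM) was without overlap for FOXA2, and no step was for HNF4A. FOXA1 ran from Low pancreas (13.1 CPM) over High pancreas (2.67 CPM) to the islets, with overlap at each step.

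The genes whose levels ranked most like a member's were sought in each tissue, as a description without a test. Over the 17 pancreas libraries the closest were PIK3C2A for PTF1A (Spearman rho 0.96), N4BP2 for RBPJL (0.96), FAM8A1 for BHLHA15 (0.94), TENT5C for GATA4 (0.94), GNPNAT1 for GATA6 (0.93) and POMK for HNF4A (0.89). The 17 libraries differ in depth and acinar share, which these values do not adjust for. Within the 10 deeper libraries the same pairs had rho of 0.92, 0.84, 0.84, 0.92, 0.83 and 0.85. These 10 are part of the 17 libraries in which the pairs were picked from a search over 8264 genes, so they are no separate check. Over the 18 islet libraries the closest to GATA6 were HAPLN4 and GFRA1 (rho 0.95 each). They had 0.95 and 0.94 without the library labelled N/A, again in a part of the libraries that picked them. The closest to GATA4 was SAMTOR (0.88), to FOXA2 CBX8 (0.87) and to HNF4A NASP (0.85). PTF1A and RBPJL in islets, and FOXA1 in both tissues, had a median under 10 counts and were not ranked.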

How the data were processed

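The authors deposited read counts, whole numbers per Ensembl pig gene in 1 table for each tissue, and these counts were used unchanged. FastQC, HISAT2 2.0.2, Subread and edgeR, with the build susScr3, are named in the submitters' processing notes. Counting options, strand and annotation release: not given in the sources used here. The animal code and tissue in a column's name tied 35 columns to samples out of 37 (the other islet samples were not analysed here), and 1 column with no matching sample was left out. Titles were followed for 2 islet samples whose source name reads Pancreas. Symbols were found for 14857 identifiers.

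CPM used library totals. Tests used edgeR 4.0.16 (R 4.3.3): filterByExpr, TMM, robust quasi-likelihood fits, two-sided, Benjamini-Hochberg adjustment over all genes tested, threshold 0.05. An SE is the log2 change divided by the root of F. Alternatives were other scalings and filters, DESeq2 1.42.0, limma-voom (limma 3.58.1), subsets, an animal block and leaving out each library. Scripts were tested on simulated data. Exact Poisson-based intervals cover counting error only.

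Members and gene lists were chosen with earlier results of these data known. Of lists with up to 6 genes every gene with a row could be named, of longer lists the 4 with the highest mean CPM. Separate animals stand behind the libraries of a group, per the labels' animal codes, which also pair the tissues. Deviations from tissue means correlated at a median of -0.01 between the tissues of an animal (16 animals). Any 2 libraries of a group (128 pairs) differed by a chi-square of at least 3.18 per degree of freedom, and none were merged. No sequences are shown, since no table of them was at hand. A few genes that these rules name are not reported here.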

Additional observations from a re-analysis of the deposited data

Results flagged for a closer look

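A single library far from the rest of its group was seen in 2 of the 32 groups of values examined (8 members in 4 groups). Chance gives about 1 in 20 for continuous values, a rate that does not hold for counts near 0. PTF1A in Low islets replicate 6 was at 0.236 CPM, which is 1 count, with the other 8 libraries of that group at 0. Any single count in such a group is flagged. The pancreas of the same animal, Low replicate 7, was the shallow library with the most PTF1A, but 1 islet count cannot tie the 2 tissues together. RBPJL in High islets replicate 7 was at 1.36 CPM, from 5 counts, with the next library at 0.604 CPM; that library also had the highest BHLHA15 of all islet libraries, at 7.63 CPM, and the highest share of counts from acinar secretory genes, 0.0562% against an islet median of 0.00185%. The part of acinar RNA in its RBPJL value was not tested.

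The density effect differed between pancreas and islets for 6 members by the test of the difference itself (edgeR adjusted p under 0.05): by a log2 difference of 1.95 for BHLHA15, 1.78 for GATA4, 1.54 for GATA6, 1.18 for FOXA2, 0.77 for HNF4A and -1.91 for FOXA1. FOXA1 had passed the filter through pancreas alone, so its value is a description. The same test called 39.9% of all 14337 genes, 17.7% higher and 22.2% lower, so a call as such was common. The 7 shallow Low pancreas libraries enter each of the 6 values, and without them none was called. Depth, acinar share and the label Low move together in those libraries and cannot be told apart.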

How the results depend on the processing

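In islets against pancreas, 5 members were called in the fit reported and when any 1 library was left out (range 5 to 5). Among them RBPJL, BHLHA15 and GATA4 had passed the filter of that fit through pancreas alone. HNF4A turned to 0.23 with no filter, 0.27 in the Low libraries and 0.42 with unscaled totals. In High against Low pancreas the 5 calls became 0 without the shallow libraries, 0 with the acinar level as a covariate, 2 after thinning and 2 with unscaled totals, and 4 to 5 when any 1 library was left out. Among the 5, GATA6 and FOXA2 had passed the filter through the High group alone. PTF1A turned to -0.01 without the shallow libraries and -0.42 with the covariate, and GATA6 to -0.23 with the covariate. For the difference of density effects the 6 calls, among them FOXA1, which passed the filter through pancreas alone, became 0 without the shallow libraries. RBPJL then turned to -0.02 and FOXA1 to 1.04, and PTF1A turned to 0.21 in limma-voom. In islets no setting called a member (0 to 0 over left-out libraries). The sign turned for BHLHA15 in limma-voom (-0.18) and with unscaled totals (-0.11), for GATA6 and HNF4A in animals whose tissues share 1 density label (-0.15 and 0.02), and for GATA6 and FOXA2 with the label of the animal's pancreas (-0.54 and 0.10). Leaving out 1 islet library gave -0.26 to 0.18 for BHLHA15, -0.01 to 0.22 for GATA6 and -0.08 to 0.03 for HNF4A. The cause of these turns was not tested. With the animal as a replicate block 5 members were called between the tissues and, by limma-voom, 5 in the difference of density effects, with FOXA1 at -0.92 and PTF1A at 0.23. Limma-voom without the block gave FOXA1 -0.90, also not called, and the block changed no member's call. Over all genes, called counts moved by more than 1.5 times: for the tissues from 7726 to 15012 with no filter; in pancreas from 4283 to 10836 with no filter, 7587 with a CPM filter, 2828 in those animals, 2542 with unscaled totals, 881 after thinning and 0 with the covariate or without the shallow libraries; for the difference from 5718 to 8812 with no filter and 61 without the shallow libraries. Of the remaining member values under the alternatives, 235 kept direction and side of the threshold, 31 lost their call and 4 gained it. A shallow library resolves a level only above 5.6 to 11.3 CPM, so a member absent there is not shown to be absent from the organ.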
